A study of Homo sapiens with 10 samples.

Results

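Hypoxia response and glycolysis genes were followed through cultured MDA-MB-231 cells and cells isolated from 4 tumours that had regrown after treatment with SM-164. The set holds 39 listed genes: the HIF subunits and the oxygen sensors that control them, HIF target genes, glucose transporters, the enzymes of glycolysis and the enzymes that direct pyruvate. A gene was measured by a probe set named for that gene alone, and where there were several, by the one with the highest mean over all 10 arrays. By this rule 36 of the 39 genes were found, on 81 probe sets, among 19775 genes in all. CA9, SLC16A1 and SLC16A3 were not analysed here. All 36 reached log2 5 on at least 2 arrays and were among the 14929 genes tested. The lowest mean of a member in any line was log2 6.28, so none passed through 1 high group alone.

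MDA-MB-231 is an established human line from a triple-negative breast cancer. SM-164 is a Smac mimetic, a compound that blocks the IAP proteins which restrain caspases. The parental cells were cultured and are labelled sensitive to the drug. The other lines came from xenografts in SCID mice, which lack functional B and T lymphocytes but keep other host cells. The mice received 5 mg/kg of SM-164 by vein, 5 days per week over 2 weeks, and tumour cells were isolated after regrowth. Whether these cells were cultured before RNA was taken is not stated in the labels. Tumours T2 and T3 are labelled resistant, and T6 and T8 sensitive. Each of the 5 lines was measured on 2 arrays. Nothing in the labels states that a line's arrays are separate cultures or preparations, so the p-values below measure the spread between arrays, which may be technical. No untreated xenograft was measured, so growth in mice, the drug and the isolation of the cells cannot be told apart in a difference from parental cells.

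HIF transcription factors pair an alpha subunit (HIF1A or EPAS1) with a stable partner. When oxygen is present, the prolyl hydroxylases EGLN1 and EGLN3 mark the alpha subunits for degradation. When oxygen is short, the subunits persist and switch on genes for glucose uptake, glycolysis, vessel growth and mitophagy, EGLN3 among them. This control acts mainly on the protein, so the mRNA of HIF1A is a poor measure of HIF activity. Many tumours run glycolysis even where oxygen is present.

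Correlation over the genes tested was 0.996 to 0.998 between replicate arrays and 0.972 to 0.995 between lines. VIM (line means log2 14.1 to 14.4), CD44 (12.3 to 12.6) and EGFR (10.6 to 11.3), which MDA-MB-231 expresses strongly, were high in every line. PGR (3.80 to 4.18) and CDH1 (4.51 to 5.40) were near background; ESR1 stood at 6.56 to 6.71 and EPCAM, fixed as low or absent in this line, at 8.40 to 9.10. Among markers of host cells, 4 of 7 endothelial genes were higher in the tumours and none lower (list mean 5.73 in parental cells, 5.81 to 6.24 in the tumours); 3 of 5 macrophage genes, 2 of 6 fibroblast and pericyte genes and 1 of 3 blood and lymphocyte genes were lower and none higher, and neither of the 2 adipocyte and muscle genes was called. Among all genes tested, 25.5% were called higher in the tumours and 16.8% lower. The means of 12 proliferation genes ran from 11.65 to 11.80. How far mouse RNA bound these human probes was not tested. In such bulk samples, fewer cells of a type and less RNA per cell cannot be told apart.

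Promoter sequence is shown first, because many members share a motif that HIF can bind. The hypoxia response core was searched as ACGTG or GCGTG on both strands in the 250 bases before each start in RefSeq (GRCh38.p14); a CACGTG, the E-box read by MYC and related factors, holds the core on both strands and counts as 2 positions. Of the 36 members, 32 matched the promoter table. At least 1 window of 27 of these 32 genes (84.4%) held the core, against 61.6% of 11887 genes tested on the arrays. Members also had more windows per gene (1.81 against 1.44) and a higher median GC content (69% against 63.6%). Per window, 35 of 58 member windows (60.3%) held it against 43.2% of all 35116 windows of this length. That background includes genes not tested on the arrays, so it is unlike the 61.6% above. Of all 27305 genes with a window, 47.4% held the core in at least 1. The share among windows of the tested genes alone was not taken. Of the members that rose in the tumours below, 16 of 18 with a window held the core, as did both lower members in the table and 9 of the 12 that were not called. A match is a description of the letters and not a bound site. The windows below belong to the members among the 8 largest differences from parental cells that are shown here, each gene's window with the most core positions, with the core in capitals. The window of HK2 lies at chr2:74834920-74835169 on the plus strand and holds 6 core positions, with 2 CACGTG among them. That of ALDOC (chr17:28576896-28577145, minus strand) holds 5, PFKFB3 (chr10:6202682-6202931, plus) and PDK3 (chrX:24465036-24465285, plus) 2 each, and ENO2 (chr12:6914330-6914579, plus) and ADM (chr11:10304823-10305072, plus) 1 each. The number of core positions did not order these genes by size or sign of difference: ADM, with 1, rose most, and PDK3, with 2, fell.
HK2: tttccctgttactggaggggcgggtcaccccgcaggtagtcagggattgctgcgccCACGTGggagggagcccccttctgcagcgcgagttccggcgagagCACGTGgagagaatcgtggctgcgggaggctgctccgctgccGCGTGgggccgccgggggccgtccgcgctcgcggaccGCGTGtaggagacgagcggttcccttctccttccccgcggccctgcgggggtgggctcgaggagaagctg
ALDOC: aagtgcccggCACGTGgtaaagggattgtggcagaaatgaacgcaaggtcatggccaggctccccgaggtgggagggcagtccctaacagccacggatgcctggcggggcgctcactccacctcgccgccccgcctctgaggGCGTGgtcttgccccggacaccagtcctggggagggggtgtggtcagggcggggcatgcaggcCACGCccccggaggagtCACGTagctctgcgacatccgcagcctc
PFKFB3: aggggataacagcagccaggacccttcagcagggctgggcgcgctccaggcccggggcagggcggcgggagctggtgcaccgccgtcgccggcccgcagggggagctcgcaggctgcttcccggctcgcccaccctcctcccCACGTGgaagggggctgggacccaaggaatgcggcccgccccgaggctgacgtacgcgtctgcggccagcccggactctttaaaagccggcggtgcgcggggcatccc
PDK3: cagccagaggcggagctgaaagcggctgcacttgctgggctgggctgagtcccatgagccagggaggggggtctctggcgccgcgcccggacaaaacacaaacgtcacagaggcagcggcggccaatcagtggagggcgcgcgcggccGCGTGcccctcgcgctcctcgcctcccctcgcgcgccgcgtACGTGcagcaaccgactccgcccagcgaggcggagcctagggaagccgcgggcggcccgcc
ENO2: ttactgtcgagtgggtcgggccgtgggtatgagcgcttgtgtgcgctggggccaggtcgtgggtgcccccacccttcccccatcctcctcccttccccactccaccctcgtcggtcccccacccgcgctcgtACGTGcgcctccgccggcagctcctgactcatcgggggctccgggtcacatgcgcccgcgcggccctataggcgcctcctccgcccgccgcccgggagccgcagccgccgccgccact
ADM: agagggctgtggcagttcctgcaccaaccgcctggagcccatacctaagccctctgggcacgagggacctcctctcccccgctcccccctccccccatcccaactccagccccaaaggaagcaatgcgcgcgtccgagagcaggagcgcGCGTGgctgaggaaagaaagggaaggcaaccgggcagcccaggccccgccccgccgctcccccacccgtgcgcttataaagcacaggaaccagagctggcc

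The first comparison asked how the regrown tumours as a group differed from parental cells. More of the members were higher than lower in the mean of the 4 tumours: 18 of 36 rose, where 25.5% of all genes tested did, and 4 fell, where 16.8% did. Called here means a Benjamini-Hochberg adjusted p under 0.05 in limma over all 14929 genes. Any call was made for 22 of 36 members and 42.3% of all genes. The median difference of the members was 0.13 on the log2 scale and that of all genes 0.0015. Most differences were small: 5 members rose by at least log2 0.5 (7.1% of all genes did) and 2 fell by as much (4.3%). Repeating the quantile normalisation of the table gave 14 higher and 6 lower members.

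HK2 and ADM rose most. HK2, the inducible hexokinase that traps glucose in the cell, read log2 10.01 and 9.82 on the parental arrays, 11.26 and 11.37 in T2, 10.71 and 10.83 in T3, 10.90 and 10.99 in T6, and 10.83 and 10.82 in T8. Every tumour array lay above both parental arrays. The mean difference was 1.05 ± 0.06 (SE; 2.07-fold; limma adjusted p 3.81e-09). ADM, a secreted vasodilator peptide and a HIF target, read 11.15 and 11.28 in parental cells, 12.53 and 12.72 in T2, 11.73 and 11.72 in T3, 12.29 and 12.37 in T6, and 12.48 on both arrays of T8. The groups did not overlap, and T3 was the tumour nearest to parental cells. The mean difference was 1.07 ± 0.05 (2.10-fold; limma adjusted p 8.58e-10). The 2 further probe sets of HK2 were dim (means log2 6.47 and 5.44) and differed by 0.05 and 0.12 in the tumours.

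VEGFA and NDRG1, HIF targets as well, moved the other way. VEGFA, the growth factor for blood vessels, read 11.53 and 11.56 in parental cells, 10.30 and 10.51 in T2, 10.80 and 10.92 in T3, 10.99 and 10.88 in T6, and 10.67 and 10.63 in T8. All 8 tumour arrays lay below both parental arrays, and the mean fell by 0.83 ± 0.06 (1.78-fold lower; limma adjusted p 4.81e-08). Its 3 further probe sets gave differences of -0.64, -0.71 and -0.82. NDRG1, a stress-induced gene of cell differentiation, read 11.63 and 11.54 in parental cells, 10.91 and 11.01 in T2, 10.99 and 11.13 in T3, 11.09 and 11.14 in T6, and 10.90 and 10.73 in T8. The arrays again did not overlap, and the mean fell by 0.59 ± 0.06 (1.51-fold lower; limma adjusted p 1.06e-06). Over all members, every tumour array lay above both parental arrays for 8 of 36 (15.7% of all genes) and below both for 4 (12.4%).

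**Figure D1:**
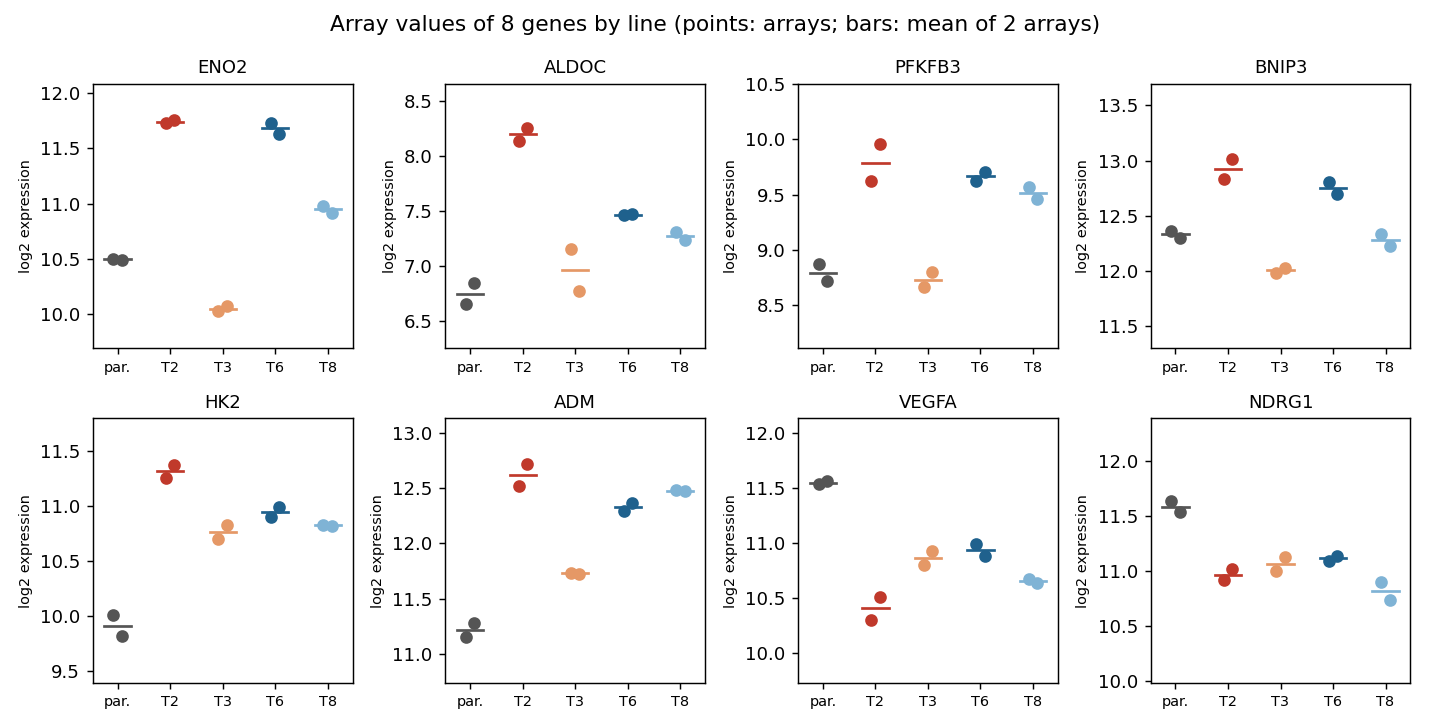
Log2 expression (vertical axes, 1 scale per gene) of 8 members on each array of parental cells (par.), T2, T3, T6 and T8; points are arrays and bars the mean of the 2 arrays of a line. HK2 and ADM lie above parental cells in all 4 tumours and VEGFA and NDRG1 below, while ENO2 and BNIP3 lie below parental cells in T3 and above them in T2 and T6.

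ENO2 and PFKFB3 were lower in T3 than in each other tumour, and ALDOC was higher in T2 than in each other tumour. ENO2, the neuronal enolase, read 10.50 and 10.49 in parental cells, 11.73 and 11.76 in T2, 10.02 and 10.07 in T3, 11.73 and 11.63 in T6, and 10.98 and 10.91 in T8. T3 lay below parental cells and the other tumours above, and the mean of the 4 was 0.61 ± 0.05 higher (limma adjusted p 1.21e-07). ALDOC, the brain aldolase, read 6.66 and 6.85 in parental cells, 8.14 and 8.26 in T2, 7.16 and 6.78 in T3, 7.47 on both arrays of T6, and 7.31 and 7.24 in T8. One array of T3 lay within the parental range, and the mean difference was 0.73 ± 0.10 (adjusted p 2.93e-05). PFKFB3 makes fructose 2,6-bisphosphate, the activator of phosphofructokinase. It read 8.87 and 8.72 in parental cells, 9.62 and 9.95 in T2, 8.66 and 8.80 in T3, 9.63 and 9.70 in T6, and 9.57 and 9.46 in T8. T3 overlapped parental cells and the other tumours stood apart from them, with a mean difference of 0.63 ± 0.08 (adjusted p 1.8e-05). PDK3, a kinase that shuts pyruvate dehydrogenase, read 8.55 and 8.78 in parental cells, 8.51 and 8.47 in T2, 8.43 and 8.31 in T3, 8.25 on both arrays of T6, and 7.95 and 8.01 in T8. It fell by 0.39 ± 0.07 (adjusted p 0.00051), with T8 lowest. Further probe sets of PDK3, all dimmer, gave -0.28, -0.24, -0.22 and -0.02 in the mean of the tumours.

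By role, glycolytic enzymes gave 9 higher and 1 lower of 15, where 25.5% and 16.8% of all genes did. Their median difference was 0.15. Besides HK2, ALDOC and ENO2, the higher ones were the isomerase GPI (0.23), the muscle phosphofructokinase PFKM (0.22), the mutase PGAM1 (0.19), the triose isomerase TPI1 (0.16), the housekeeping hexokinase HK1 (0.15) and the muscle aldolase ALDOA (0.14). Without T2, HK1 (0.10, adjusted p 0.0597) and ALDOA (0.07, adjusted p 0.16) were not called. Further probe sets of ALDOA gave 0.18 (mean log2 13.65) and 0.62 (mean log2 10.40) in the mean of the tumours. In T3 these further probe sets gave -0.04 and 0.20, and the chosen one -0.06. PFKL, the liver form of phosphofructokinase, fell by 0.35. TPI1 was not called when probe sets ending in _x_at or _s_at, which can bind related transcripts, were left out (0.16, adjusted p 0.294). The other 5 did not pass the test: GAPDH differed by 0.06 (adjusted p 0.168), PFKP by 0.06, PGK1 and ENO1 by 0.04 each and PKM by -0.01. PFKP was called without T3 (0.19, adjusted p 0.00258), and GAPDH with the mean over its probe sets (0.08, adjusted p 0.0436). GAPDH read 14.53 on both parental arrays, 14.67 on both of T2, 14.54 and 14.51 in T3, 14.58 and 14.60 in T6, and 14.57 and 14.60 in T8. The members with a mean above log2 13 number 9, of which ALDOA, PGAM1, TPI1 and LDHB were called and GAPDH, PGK1, ENO1, PKM and LDHA were not; the highest value on an array was between 14.69 and 14.77. Without probe sets ending in _x_at or _s_at, ENO1 gave -0.30 (adjusted p 0.024), from a dim probe set with a mean of log2 6.02. Another bright probe set of ENO1 (mean log2 13.69) gave 0.19, and one with a mean of log2 8.20 gave -0.12.

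Both PFKFB enzymes were higher, PFKFB4 by 0.27, which was not called without T2 (0.10, adjusted p 0.227) or without T6 (0.17, adjusted p 0.0508). Of 4 measured genes of pyruvate and lactate, LDHB (0.23), the lactate dehydrogenase subunit of the heart, rose and PDK3 fell. LDHA, the subunit that favours lactate, read 14.15 and 14.08 in parental cells, 14.26 and 14.27 in T2, 14.09 on both arrays of T3, 14.18 and 14.14 in T6, and 14.13 on both of T8. Its mean difference was 0.05 (adjusted p 0.293), and T2 alone lay outside the range of the other lines. Neither glucose transporter was called in the mean of the tumours (SLC2A1 -0.13, SLC2A3 -0.09). The further probe sets of SLC2A3 gave 0.16 each, of opposite sign. SLC2A1, the basal glucose transporter, was called at -0.25 without T2 (adjusted p 0.00193), at -0.16 without T6 (adjusted p 0.0276) and at -0.22 after repeated quantile normalisation (adjusted p 0.000867).

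Of the HIF subunits and oxygen sensors, only EGLN1 passed the test, at 0.18, and it no longer did without T6 (0.15, adjusted p 0.0841) or without parental replicate 2 (0.10, adjusted p 0.43). HIF1A (0.12, adjusted p 0.122) and EPAS1 (0.10, adjusted p 0.22) did not, but both did without T3 (0.19 and 0.24, adjusted p 0.0224 and 0.00686) and without T8 (0.17 and 0.18, adjusted p 0.042 and 0.0422). Of 9 other HIF targets, 5 rose and 2 fell, where 25.5% and 16.8% of all genes did. The share that fell was thus near that of all genes. Besides ADM the higher ones were ERO1A (0.26), an oxidase of protein folding in the endoplasmic reticulum, MXI1 (0.24), a MYC antagonist, KDM3A (0.19), a histone demethylase, and BNIP3 (0.16), a mitophagy receptor. BNIP3 was not called without T2 (0.01, adjusted p 0.878) or without T6 (0.07, adjusted p 0.335), nor KDM3A without T2 (0.11, adjusted p 0.143). BNIP3L (-0.08), a second mitophagy receptor, and ANKRD37 (0.10) did not pass the test, but BNIP3L was called lower after repeated quantile normalisation (-0.17, adjusted p 0.00244). That normalisation also ended the calls of HK1 (0.07), EGLN1 (0.09), KDM3A (0.11) and BNIP3 (0.08).

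Calls of small differences also turned on single arrays. Without parental replicate 1, HK1 (0.12), ALDOA (0.13), PFKFB4 (0.19), KDM3A (0.21) and MXI1 (0.19) were not called, with adjusted p between 0.059 for KDM3A and 0.109 for HK1, and HIF1A was (0.20, adjusted p 0.041). Without parental replicate 2, KDM3A (0.18, adjusted p 0.123) and BNIP3 (0.12, adjusted p 0.231) were not. Without T2 replicate 1, HIF1A (0.15) and EPAS1 (0.13) were called, and without T2 replicate 2, SLC2A1 was (-0.15). BNIP3 and EGLN1 were also not called without T6 replicate 1 (0.14 and 0.16) or T8 replicate 1 (0.14 and 0.17), nor EGLN1 without T3 replicate 2 (0.16). The 8 largest differences passed with each array and each tumour left out in turn.

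Each tumour was then set against parental cells on its own. The 4 comparisons share the parental arrays and are given side by side. In T2, 29 of 36 members were called (33% of all genes), 25 of them higher (17.5%) and 4 lower (15.5%), with a median difference of 0.32. In T3, 17 were called (37.9% of all genes), 4 higher (22.1%) and 13 lower (15.8%), with a median of -0.07. In T6, 27 were called (34.5% of all genes), 23 higher (20.7%) and 4 lower (13.7%), with a median of 0.22. In T8, 17 were called (43.8% of all genes), 12 higher (28.7%) and 5 lower (15.1%), with a median of 0.04. Repeated quantile normalisation turned the count in T8 to 7 higher and 10 lower, and leaving out T8 replicate 2 left 11 calls of 17. The shares of members called higher in T2 and in T6, and lower in T3, are thus above those of all genes, while T8 is near them.

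**Figure D2:**
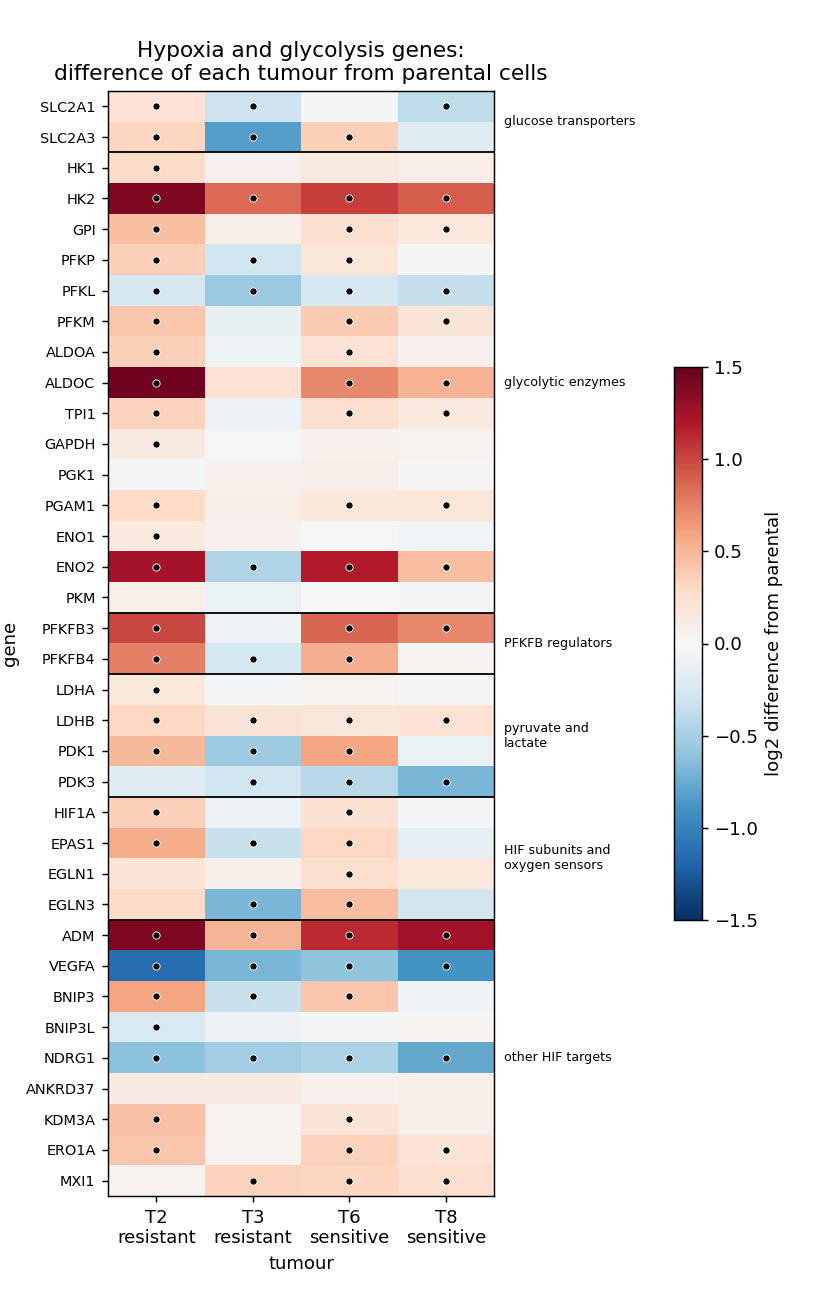
Log2 difference of each of the 4 tumours (across, with the labelled response) from parental cells for the 36 measured members (down the side, by role); red is higher and blue lower, and a dot marks an adjusted p under 0.05 in limma. T2 and T6 hold 25 and 23 higher members, T3 holds 13 lower ones, and HK2, ADM, VEGFA and NDRG1 have the same sign in all columns.

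HK2 kept a difference of at least 0.85 in each tumour (1.40 in T2, 0.85 in T3, 1.03 in T6, 0.91 in T8), and ADM ranged from 0.51 in T3 to 1.41 in T2. LDHB also passed in each, at 0.31, 0.19, 0.18 and 0.22 in the same order. Lower in each were VEGFA (-1.14, -0.68, -0.61 and -0.89), NDRG1 (-0.62, -0.52, -0.47 and -0.77) and PFKL (-0.25, -0.56, -0.24 and -0.35). Other members changed sign between tumours. ENO2 differed by 1.25 in T2, -0.45 in T3, 1.19 in T6 and 0.45 in T8, all called. PFKFB4 differed by 0.76, -0.26, 0.54 and 0.03, the last not called. BNIP3 gave 0.59, -0.33, 0.42 and -0.05, and EPAS1 0.55, -0.34, 0.31 and -0.13, with T8 again not called. A dimmer probe set of EPAS1 (mean log2 6.20) gave 0.47, -0.09, 0.52 and 0.29. Its fall in T3 was smaller and its sign in T8 opposite.

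Whether the tumours differed from each other was tested without the parental arrays in the contrast. By limma's moderated F test, 30 of 36 members differed among the 4 tumours, where 41.7% of all genes did. For 16 members the highest and lowest tumour means were at least log2 0.5 apart, as for 19.1% of all genes. T2 had the highest mean of the 4 tumours for 25 members (29.3% of all genes) and T3 the lowest for 26 (29%). Both held for 21 members (11.2% of all genes), an order singled out after the values were seen. The 6 members that did not pass were PGK1, PKM, LDHB, GAPDH, EGLN1 and ANKRD37.

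For the members, the 2 resistant tumours, T2 and T3, were the pair with the most calls. Over all genes, T2 against T8 gave 1442 higher and 3301 lower, and T2 against T3 gave 2069 and 2525. Of the members 28 were called (30.8% of all genes), 26 of them higher in T2 than in T3 (13.9%) and 2 lower (16.9%), and the median difference was 0.38 against 0.0060 for all genes. This contrast and that of T6 with T8 were added after the differences among tumours had been seen. ENO2 led with 1.70 ± 0.06 (limma adjusted p 5.18e-11), followed by ALDOC (1.23), SLC2A3 (1.15), PFKFB3 (1.06), PFKFB4 and PDK1 (1.02 each), EGLN3 (0.98), BNIP3 (0.92), EPAS1 and ADM (0.89 each). Of the 15 glycolytic enzymes, 13 were higher in T2, PGK1 (-0.08) and ENO1 (0.08) being the others. After centring on the array median, HK1 (0.19), PGAM1 (0.18), PKM (0.14) and GAPDH (0.11) were not called (limma adjusted p 0.128 to 0.312). HK2 was not called with the mean over probe sets (0.14, adjusted p 0.16). Repeated quantile normalisation added ENO1 (0.11, adjusted p 0.014). Both lower members were VEGFA (-0.45) and MXI1 (-0.29). With each array left out in turn the count stayed between 25 and 28; PFKL and MXI1 were not called without T2 replicate 1 (0.21 and -0.23), and GAPDH (0.14) and PKM (0.17), the smallest differences called with LDHA (0.17), were each lost without at least 1 array.

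Fewer members differed between the sensitive tumours. Called were 12 members (15.1% of all genes), all higher in T6 than in T8 (4.66%) and 0 lower (10.4%). These were EGLN3 (0.74), ENO2 (0.73), PDK1 (0.70), SLC2A3 (0.54), PFKFB4 (0.51), BNIP3 (0.47), EPAS1 (0.44), SLC2A1 (0.35), NDRG1 (0.30), VEGFA (0.29), HIF1A (0.25) and ALDOA (0.15). SLC2A3, ALDOA, HIF1A, VEGFA and NDRG1 each lost their call without at least 1 array of these tumours. With the mean over probe sets, EPAS1 (0.18, limma adjusted p 0.163), SLC2A1, ALDOA and HIF1A were not called, while PFKM, PDK3 and EGLN1 were. The count was 7 without T6 replicate 1 or without T8 replicate 2, and 23, all higher, under repeated quantile normalisation. Of the glycolytic enzymes only ENO2 and ALDOA passed here, while HK2 (0.12) and ALDOC (0.19) did not.

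Of the genes of oxygen sensing, EPAS1, HIF1A and EGLN3 differed among the tumours, and EGLN1 did not (adjusted p 0.288). EPAS1, the HIF-2 alpha subunit, read 10.25 and 10.31 in parental cells, 10.71 and 10.97 in T2, 9.92 and 9.97 in T3, 10.60 and 10.58 in T6, and 10.18 and 10.12 in T8. T2 and T6 lay above parental cells and T3 below, and neither T2 and T6 nor T8 and parental cells differed beyond the spread between arrays. HIF1A read 12.83 and 12.66 in parental cells, 12.99 and 13.22 in T2, 12.61 and 12.70 in T3, 12.98 and 12.96 in T6, and 12.73 and 12.70 in T8. It was higher in T2 (0.36) and T6 (0.23) than in parental cells, while T3 (-0.09) and T8 (-0.03) did not pass the test. EGLN3 is a hydroxylase that HIF itself induces. It read 6.91 and 7.03 in parental cells, 7.24 and 7.28 in T2, 6.44 and 6.12 in T3, 7.43 and 7.44 in T6, and 6.83 and 6.57 in T8. Its T2 and T6 arrays lay above all others and its T3 arrays below all others, but against parental cells only T6 (0.46) and T3 (-0.69) were called, not T2 (0.29, adjusted p 0.0991) or T8 (-0.27, adjusted p 0.0922).

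Glucose transporters and pyruvate dehydrogenase kinase 1 also differed among the tumours. SLC2A3, a high-affinity glucose transporter, read 9.17 and 9.12 in parental cells, 9.32 and 9.62 in T2, 8.12 and 8.51 in T3, 9.51 and 9.49 in T6, and 9.00 and 8.91 in T8. T3 lay lowest, with a difference of -0.83 from parental cells. Its probe set ends in _x_at and can bind related transcripts, and 2 further probe sets of the gene differed from parental cells by -0.52 and -0.66 in T3 and by 0.55 and 0.61 in T2. SLC2A1 read 10.78 and 10.86 in parental cells, 10.97 and 11.12 in T2, 10.51 and 10.50 in T3, 10.78 and 10.80 in T6, and 10.44 and 10.43 in T8. T2 was highest, and neither T3 and T8 nor T6 and parental cells differed beyond the spread between arrays. A dimmer probe set of SLC2A1 (mean log2 6.76) differed from parental cells by 0.44 in T2, -0.55 in T3, 0.10 in T6 and -0.03 in T8. On it T8 thus did not lie near T3. PDK1 differed from parental cells by 0.48 in T2, -0.54 in T3, 0.59 in T6 and -0.10 in T8, the last not called. The brighter of its further probe sets (mean log2 7.20) gave 0.36, -0.03, 0.63 and -0.02 in the same order, so it did not show the fall in T3. PDK3, of the same family, was not called in T2 (-0.18) and was lower in the others. Its further probe sets, all dimmer, gave -0.25, 0.01, 0.01 and 0.17 in T6, so most did not show the fall there.

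**Figure D3:**
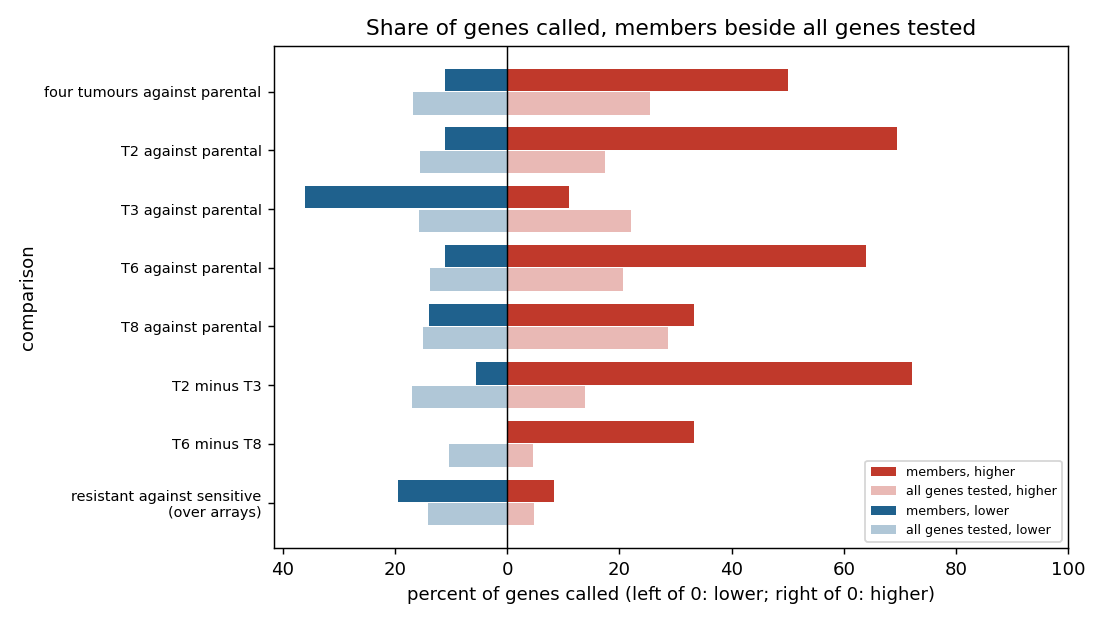
Percent of genes called higher (right of 0) and lower (left of 0) in limma, for the 36 members (dark bars) and for all 14929 genes tested (pale bars), in 8 comparisons. Members are called higher more often than all genes in T2 (25 of 36), T6 (23 of 36) and T2 minus T3 (26 of 36) and lower more often in T3 (13 of 36); the split in T8 and that of resistant against sensitive turn with the scaling.

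The labelled response was compared with the tumour as the replicate, since the labels give the response per tumour. By limma, 0 of 36 members and 0 of 14929 genes differed between the 2 resistant and 2 sensitive tumours, and 0 members had an unadjusted p under 0.05, where 4.43% of all genes did. The line as a random block over all arrays also called 0 members. ENO2 gave -0.42 ± 0.61 (SE, adjusted p 0.929), with the resistant T2 the highest and the resistant T3 the lowest of the 4 tumours. SLC2A3 (-0.34 ± 0.43, adjusted p 0.919), PFKFB3 (-0.33 ± 0.37, adjusted p 0.913) and PDK3 (0.31 ± 0.15, adjusted p 0.894) came next.

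Over arrays, which describes these particular tumours, 10 members were called (19% of all genes), 3 higher in the resistant mean (4.76%) and 7 lower (14.2%). The 10 are ENO2 (-0.42 ± 0.04, limma adjusted p 2.14e-05), SLC2A3 (-0.34 ± 0.08, 0.0119), PFKFB3 (-0.33 ± 0.07, 0.0064), PDK3 (0.31 ± 0.07, 0.00481), EGLN3 (-0.30), ADM (-0.23), SLC2A1 (0.16), BNIP3L (-0.16), VEGFA (-0.16, adjusted p 0.05 after rounding) and ENO1 (0.13). Repeated quantile normalisation gave 6 higher and 5 lower members, and centring on the array median 1 and 5. ENO2, PFKFB3, PDK3 and ADM kept their call with every array left out in turn, and the other 6 lost it without at least 1. The count was 4 without T8 replicate 1, and 6 without T3 replicate 1, T6 replicate 1 or T6 replicate 2. All resistant arrays lay above all sensitive arrays for 2 members (3.97% of all genes) and below for 0 (6.44%). For PDK3 the mean over its 5 probe sets gave 0.05 (adjusted p 0.603), and for SLC2A1 a probe set without the _s_at ending gave -0.09 (adjusted p 0.62).

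**Figure D4:**
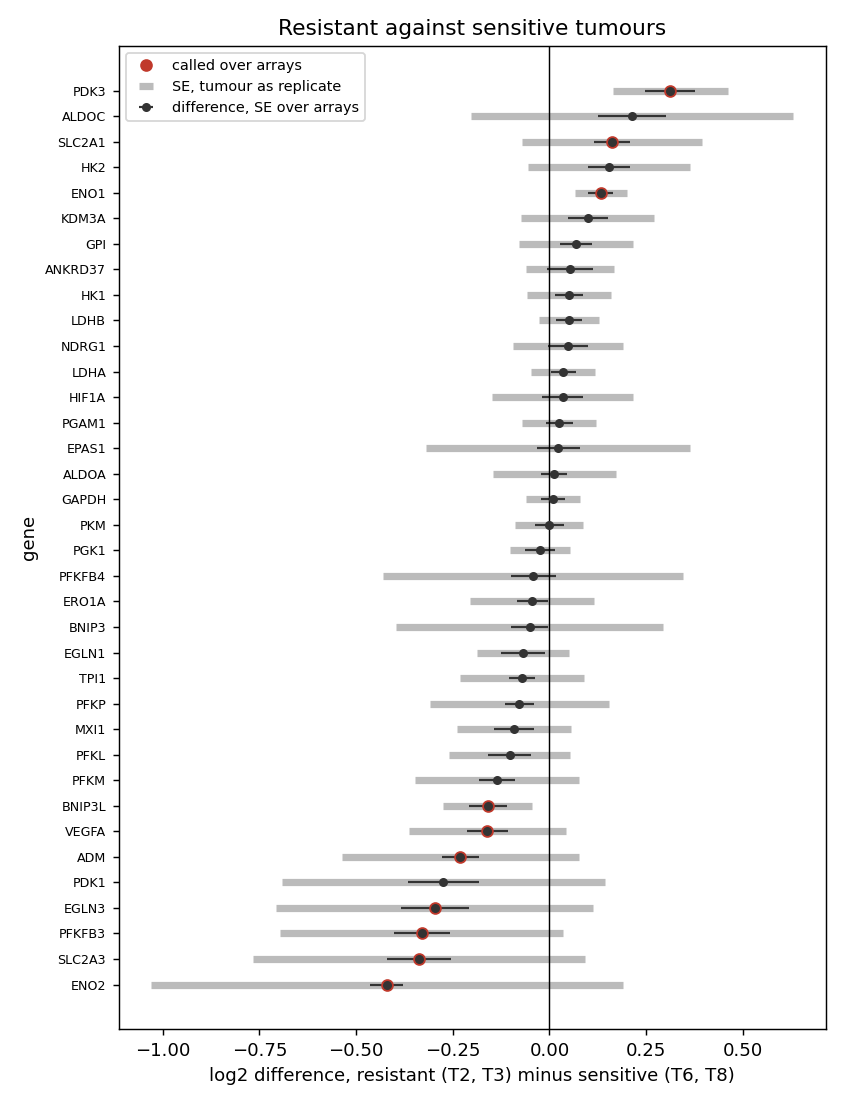
Log2 difference of resistant (T2, T3) minus sensitive (T6, T8) tumours for 36 members (vertical axis, by size); black bars show the SE over arrays, grey bars the SE with the tumour as replicate, and red rings mark the 10 members called over arrays. For ENO2 the SE grows from 0.04 over arrays to 0.61 over tumours.

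Genes of the same pathways outside the members were described from further lists. Of 35 other HIF target genes tested, 13 were higher in the tumours (25.5% of all genes) and 4 lower (16.8%). EDN1, the vasoconstrictor endothelin, was higher by 2.41 ± 0.07 and CXCR4, a chemokine receptor, by 2.10 ± 0.08 (limma adjusted p 4.92e-12 and 3.48e-11). EDN1 rose in T3 (2.79) as in T2 (2.37), T6 (2.11) and T8 (2.38), and CXCR4 by 2.50 in T3 against 1.64 in T2, so these HIF targets did not have their lowest tumour mean in T3. PLOD2, a collagen lysyl hydroxylase, rose by 0.92, least in T3 (0.33). Of 13 further HIF pathway regulators 3 rose and 2 fell, near the shares of all genes. Among them were ARNT2, a partner subunit (-1.25 ± 0.09), ELOB, of the complex that degrades HIF (-0.38), and CITED2, a HIF antagonist (0.49).

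Around glycolysis, 6 of 19 further isozymes, transporters and regulators rose and 2 fell, against 25.5% and 16.8% of all genes, so the share that rose was near that of all genes. The carriers SLC2A13 (1.25) and SLC16A7 (1.21) were higher and SLC2A12 (-0.84) lower. Of 23 genes of pyruvate dehydrogenase and the citric acid cycle, 7 rose and 5 fell, which is also near those shares. SUCLG1, of succinyl-CoA ligase, was higher by 0.65. PDHA1, a catalytic subunit of pyruvate dehydrogenase (-0.57), and PDP1, the phosphatase that activates it (-0.58), were lower. Of 6 pentose phosphate genes 4 rose and 1 fell, with RPIA at 0.57, PGD at 0.33 and PGLS at 0.24. Of 5 gluconeogenesis genes none rose and 2 fell. FBP1, which reverses the phosphofructokinase step, had means of 10.20 in parental cells, 8.20 in T2, 10.23 in T3, 8.56 in T6 and 10.19 in T8. Its differences from parental cells were -2.00 in T2 and -1.64 in T6, the tumours with the most higher members, while T3 (0.03) and T8 (-0.01) did not pass the test. PC, pyruvate carboxylase, fell by 0.31.

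The array's own controls were compared between lines. The 3′ minus 5′ difference of the array's GAPDH controls was 0.13 to 0.21 and that of ACTB 0.11 to 0.19, with GAPDH at 0.13 to 0.15 in T2 and T6 and at 0.16 to 0.21 in the other lines. The GAPDH 3′ control had a mean of 14.32 in parental cells and 14.52 in T2. Its 5′ control had 14.13 and 14.38, and its middle control 14.41 and 14.58. These differences are as large as many called for members, and the controls read the mRNA of GAPDH, itself a member. The ACTB 3′ control had 14.40 in parental cells and 14.42 in T2. The part of these control differences in the values of T2 and T6 was not tested. Members had 41 further probe sets that reached log2 5, on 21 genes, and 32 of these had the same sign as the chosen one in the tumours against parental cells. Among the exceptions were BNIP3L, with 0.14 on its other probe set, and SLC2A3, with 0.16 on each further probe set against -0.09 on the chosen one.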

How the data were processed

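Total RNA of 5 lines was measured on Affymetrix expression arrays, 2 per line, from 5 ug of RNA. The deposited table holds log2 values made by the authors with affy, RMA and limma, per the submitters' processing notes (no versions). RMA corrects background, quantile-normalises probes and summarises probe sets. Its 54675 probe sets were named from platform annotation updated by Entrez number: 62 controls were left out, 41091 had 1 symbol, 1801 several and 11721 none. Probe sets naming SLC2A14 and SLC2A3 together (2) were not used. Genes reaching log2 5 on at least 2 arrays were tested in limma 3.58.1 (R 4.3.3; lmFit, eBayes with trend, Benjamini-Hochberg over all genes) with 1 coefficient per line (5 residual and 9.39 prior degrees of freedom). The response was also tested on line means, the tumour as replicate (2 and 2.73). Errors are standard errors (SE) of these fits. The fits were run on simulated data whose spread was that between arrays of a line. These data held no variation between tumours, so they cannot check the fit with the tumour as replicate. Arrays carry no read depth, so their number limits the precision.

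The members and lists were chosen with earlier results of these data known. Values per array are given for the 8 largest called differences of the tumours from parental cells, the 4 largest of resistant against sensitive over arrays, and HIF1A, EPAS1, VEGFA, ADM, SLC2A1, LDHA, EGLN3 and GAPDH; of other lists, up to 3 called genes are named. Alternatives were repeated quantile normalisation, median centring, other filters, other choices of probe set, eBayes without trend, a block for the replicate number, and leaving out each array or tumour. Promoter sequences are from RefSeq.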

Additional observations from a re-analysis of the deposited data

Results flagged for a closer look

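Of the 36 measured members, 30 differed among the 4 tumours by limma's F test, so that their difference from parental cells was not the same in each. The distance from the highest to the lowest tumour mean, on the log2 scale, was 1.7 for ENO2, 1.23 for ALDOC, 1.06 for PFKFB3 and 1.02 for PFKFB4. Among glucose transporters and pyruvate dehydrogenase kinases it was 1.18 for SLC2A3, 1.13 for PDK1, 0.608 for SLC2A1 and 0.509 for PDK3. HIF genes gave EGLN3 1.15, EPAS1 0.89 and HIF1A 0.446, and HIF targets BNIP3 0.923, ADM 0.893, VEGFA 0.531, KDM3A 0.384, ERO1A 0.371, NDRG1 0.299, MXI1 0.29 and BNIP3L 0.26.

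The remaining enzymes were PFKP 0.653, HK2 0.551, PFKM 0.525, TPI1 0.428, ALDOA 0.421, GPI 0.362, PFKL 0.314, HK1 0.214, PGAM1 0.21, ENO1 0.188 and LDHA 0.174. Since 41.7% of all genes tested differed among the tumours, a call alone does not set a member apart.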

How the results depend on the processing

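Leaving out probe sets ending in _x_at or _s_at left 22 members tested and lowered the counts called to 12 (tumours against parental cells), 14 (T2), 14 (T6), 8 (T8), 18 (among tumours), 4 (response over arrays), 17 (T2 against T3) and 6 (T6 against T8). The response over arrays gave 6 members after median centring and 6 without the trend, and T6 against T8 gave 23 after repeated quantile normalisation. With each array left out, the counts ran from 18 to 24 (tumours), 22 to 29 (T2), 15 to 17 (T3), 18 to 28 (T6), 11 to 17 (T8), 26 to 30 (among tumours), 4 to 12 (response over arrays), 0 to 0 (response with the tumour as replicate), 25 to 28 (T2 against T3) and 7 to 14 (T6 against T8). Without T2, T3, T6 or T8 the mean of the tumours gave 18, 26, 20 and 24. Without _x_at and _s_at probe sets, signs reversed for ENO1 in the tumours (-0.30) and for SLC2A1 in the response (-0.0901). These are the values of single dimmer probe sets (means log2 6.02 and 6.76). With the mean over probe sets the sign reversed for HK2 in the response (-0.17). That mean joins the chosen probe set (0.15) with dim ones (-0.22 and -0.44). Why probe sets of a gene differ was not tested. The alternatives for T2 against T3 and T6 against T8 were chosen after seeing the data.

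The labels do not say whether replicate numbers pair arrays across lines. Deviations of replicate 1 from replicate 2 correlated above 0.1 in 4 of 10 pairs of lines (-0.39 to 0.50). These correlations cannot settle whether arrays of different lines shared a source of variation, which was not tested. With the replicate number as a block the counts were 21 (tumours), 28 (T2), 17 (T3), 27 (T6), 17 (T8), 32 (among tumours), 9 (response over arrays), 29 (T2 against T3) and 13 (T6 against T8). Of differences of single members under these alternatives, 730 kept direction and side of the threshold in the tumours, 32 lost the call and 15 gained it; in the response over arrays these were 567, 47 and 18. How the signal over background limits these calls was not tested.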
